A study of Mus musculus with 23 samples.

Results

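The genes described here are 10 members of the retinoic acid pathway and of its proximal targets, chosen by symbol, measured by RNA sequencing in distal forelimb tissue of E11.5 mouse embryos. They are the synthesis gene Aldh1a2, the breakdown gene Cyp26b1, the binding protein genes Crabp1 and Crabp2, the receptor genes Rara, Rarb, Rarg and Rxrg, and the homeobox genes Meis1 and Meis2. All 10 have a row and an adjusted p among the 34682 rows, 11218 of them with an adjusted p, of the authors' deposited table that compares Inv1DelCTCF with Inv1. Inv1DelCTCF embryos (2 libraries) carry, by their name, the first engineered inversion and in addition a deletion at a CTCF site. Inv1 embryos (3 libraries) carry the inversion alone, so the inversion is shared by both groups. It was made with CRISPR/Cas9 and moves an enhancer cluster of the Epha4 domain into a gene-dense region, and the labels give the G4 embryonic stem cell line as the cell type of every sample. Zygosity, sex and litter are not given in the labels, and a p-value then covers only the spread among the libraries at hand, which may be technical. The 4 comparisons of Inv1 to Inv4 with wild type list 79 genes in all and none of the 10, so the effect of the inversions themselves on these genes was not analysed here. No value per library was at hand, and each gene is therefore given by its mean normalised count over the 5 libraries, by the level of each group rebuilt from that mean and the log2 change, and by the authors' standard error (SE).

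Retinoic acid is a small lipid signal made from vitamin A by retinal dehydrogenases. It is carried in the cytosol by CRABP proteins, binds nuclear receptors of the RAR family that sit on DNA as pairs with RXR proteins, and is removed by CYP26 enzymes. In the early limb bud the flank and proximal limb are rich in retinoic acid and express Meis genes, while CYP26B1 in the distal limb clears it and the distal mesenchyme is low in Meis1 and Meis2. Loss of Cyp26b1 in mice spreads retinoic acid distally and shortens the limb.

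The promoters of 3 genes are shown, from RefSeq on build GRCm38.p6, each as the 250 bases before the annotated start, 5′ to 3′ along the gene. Windows were matched by symbol for 9 of the 10 genes, 14 windows in all. Cyp26b1 (chr6:84593811-84594060, minus strand) and Crabp1 (chr9:54764498-54764747, plus strand) are shown because both fell in Inv1DelCTCF, with GC boxes (GGGCGG on either strand) and, in Cyp26b1, a TATA box (TATAAA) in capitals. Rarb (chr14:16575477-16575726, minus strand) is shown because its promoter holds the classic retinoic acid response element, in capitals, a DR5 match of 2 half-sites in the same direction with 5 bases between them.
Cyp26b1: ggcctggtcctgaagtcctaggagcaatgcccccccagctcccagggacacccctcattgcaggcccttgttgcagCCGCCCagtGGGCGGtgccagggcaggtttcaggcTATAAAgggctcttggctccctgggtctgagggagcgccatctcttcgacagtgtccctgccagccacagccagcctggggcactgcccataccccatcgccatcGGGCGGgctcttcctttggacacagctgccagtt
Crabp1: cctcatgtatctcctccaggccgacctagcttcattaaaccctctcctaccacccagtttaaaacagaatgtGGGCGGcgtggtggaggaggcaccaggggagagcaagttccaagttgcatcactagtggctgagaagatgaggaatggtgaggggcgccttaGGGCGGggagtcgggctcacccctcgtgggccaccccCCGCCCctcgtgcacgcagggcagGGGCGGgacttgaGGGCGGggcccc
Rarb: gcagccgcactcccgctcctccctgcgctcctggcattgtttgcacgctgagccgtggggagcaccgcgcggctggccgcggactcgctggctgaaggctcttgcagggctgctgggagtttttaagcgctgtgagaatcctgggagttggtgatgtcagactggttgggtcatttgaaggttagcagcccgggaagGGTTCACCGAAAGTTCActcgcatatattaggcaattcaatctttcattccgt
The half-sites searched on both strands were AGGTCA, its variant AGTTCA, the form GGGTCA, and the form GGTTCA, and the 17 bases of the Rarb match run from -53 to -37 relative to the start. Of 32851 promoter windows, 0.0883% held a DR5 match, and Rarb was the 1 gene among the 9 with one. The same half-sites spaced by 2 bases (DR2) or 1 base (DR1) were found in none of the 14 windows, against 0.174% and 0.164% of all windows. Cyp26b1 had 3 GC boxes and Crabp1 had 5, and 32.7% of all windows held at least 1. Of the 14 windows, 6 held a GC box. Among them were windows of Rara (4, 4 and 1 boxes) and Rarg (3 boxes), genes that did not pass the authors' test. The 2 Rara windows with 4 boxes overlap and hold the same 4 boxes, so 1 stretch is counted in 2 of the 6 windows. A TATA box, counted at any place in the 250 bases and not only near the start, was found in 12.4% of all windows. It was found in 2 of the 14, those of Cyp26b1 and of Meis2, a gene that did not pass the authors' test. The GC and TATA boxes printed do not overlap, while each DR5 match holds 2 of the half-sites, which occur alone or paired in 38.6% of all windows. The matches describe letters, not binding.

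Of the 10 genes, Cyp26b1 and Crabp1 fell in Inv1DelCTCF, Rxrg rose, and 7 did not pass the authors' Wald test at an adjusted p under 0.05 in the authors' deposited table. Across all 11218 genes with an adjusted p, 11.7% were called, 3.81% higher in Inv1DelCTCF and 7.89% lower. The median log2 change of the 10 genes was -0.041, against -0.014 for all tested genes. In a bulk sample fewer cells of a type and less RNA per cell cannot be told apart. The largest unadjusted p that was still called was 0.00583, and that of Rxrg was 0.00569, so Rxrg passed by a narrow margin. After a smooth trend of the log2 change in GC content and transcript length was subtracted, none of the 10 was called by the Wald test with Benjamini-Hochberg adjustment, against 3.66% of all genes (2.01% higher and 1.65% lower). At an unadjusted p under 0.05 the counts were 5 of the 10 before the subtraction, against 26.1% of all tested genes, and 3 after it, against 16.6%.

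**Figure D1:**
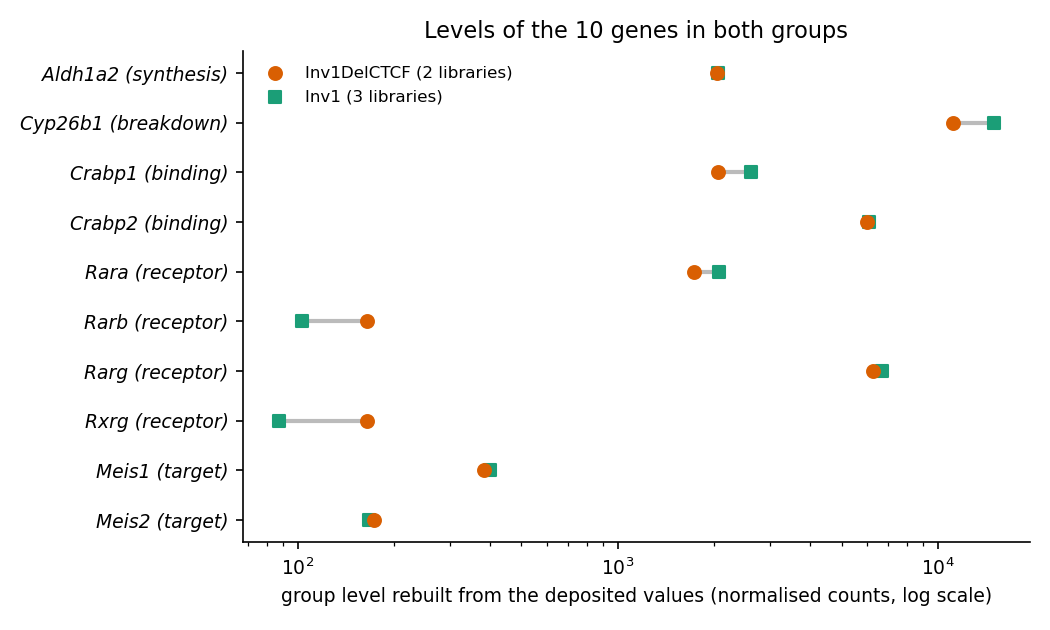
Rebuilt level of each gene (normalised counts, log axis) in Inv1DelCTCF (circles, 2 libraries) and Inv1 (squares, 3 libraries), joined by a grey line; no spread between libraries is known for these levels. Cyp26b1 lies highest in both groups, and the widest gaps are those of Rxrg and Rarb, both near the low end.

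Cyp26b1, the enzyme gene for the breakdown of retinoic acid in the distal limb, was the most abundant of the 10 by mean count. Its mean normalised count of 13455 in the authors' deposited table ranked 294th of 34682 rows. The rebuilt level was 11181 normalised counts in Inv1DelCTCF and 14971 in Inv1. It was at 0.747 of the Inv1 level (95% interval 0.646 to 0.864), and by the authors' deposited table the log2 change was -0.42 (adjusted p = 0.00287, SE 0.107). With the GC and length trend subtracted its log2 change was -0.28 (adjusted p = 0.136, Wald test with Benjamini-Hochberg adjustment), and it was no longer called.

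Aldh1a2, the retinal dehydrogenase gene that makes most retinoic acid of the trunk and limb field, had rebuilt levels of 2038 normalised counts in Inv1DelCTCF and 2059 in Inv1. By the authors' deposited table the log2 change was -0.015 (adjusted p = 0.950, SE 0.110), with an interval of -0.23 to 0.20. Changes within those bounds are not excluded by these libraries. The difference between the log2 changes of Cyp26b1 and Aldh1a2 was -0.41 (95% interval -0.71 to -0.11), and with the trend subtracted it was -0.29, with an interval of -0.59 to 0.0087 that includes 0. This and 5 further pairs of related genes were set against each other after their values had been seen, with no adjustment over the 6 pairs, and each interval treats the 2 SE values as independent.

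Crabp1, which encodes a cytosolic protein that binds retinoic acid and can pass it to CYP26 enzymes, fell. Its rebuilt level was 2063 normalised counts in Inv1DelCTCF and 2611 in Inv1, that is 0.790 of the Inv1 level (95% interval 0.675 to 0.925). By the authors' deposited table the log2 change was -0.34 (adjusted p = 0.0346, SE 0.116). It was no longer called when p-values were adjusted over every row that has one (adjusted p = 0.0660, Wald test), nor with the GC and length trend subtracted (log2 change -0.19, adjusted p = 0.409, Wald test). Crabp2, whose protein delivers retinoic acid to RAR in the nucleus, had rebuilt levels of 6000.2 normalised counts in Inv1DelCTCF and 6096 in Inv1. By the authors' deposited table the log2 change was -0.023 (adjusted p = 0.869, SE 0.067), with an interval of -0.15 to 0.11, which with that of Rarg is the narrowest of the 10. Crabp1 minus Crabp2 gave a difference of -0.32 (95% interval -0.58 to -0.054) on the log2 scale, and one of -0.20 (-0.46 to 0.066) with the trend subtracted, an interval that includes 0.

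Of the receptor genes, Rxrg passed the test, while Rara, Rarb and Rarg did not. Rxrg, which encodes an RXR partner with a narrower expression than its relatives, had rebuilt levels of 165.3 normalised counts in Inv1DelCTCF and 87.4 in Inv1. It was 1.89-fold higher in Inv1DelCTCF (95% interval 1.20 to 2.97), with a log2 change of 0.92 (adjusted p = 0.0492, SE 0.332) in the authors' deposited table. With its mean of only 119 normalised counts, the call was lost when p-values were adjusted over every row (adjusted p = 0.0934), over rows with a mean of at least 10 (adjusted p = 0.0647), or with the trend subtracted (log2 change 1.02, adjusted p = 0.0558), all by the Wald test. The smallest mean among the genes with an adjusted p was 113 normalised counts. Rxrg, with 119, and Rarb, with 128, lay above it only through their level in Inv1DelCTCF, since both were below it in Inv1. Neither the call of Rxrg nor the value of Rarb is therefore free of that filter. Rarb, itself a direct target of retinoic acid through the element shown above, had rebuilt levels of 165.1 normalised counts in Inv1DelCTCF and 102.9 in Inv1. Its log2 change of 0.68 (adjusted p = 0.130, SE 0.308) in the authors' deposited table did not pass.

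Rarb lies on the opposite strand of Top2b, a topoisomerase gene, and their exons overlap in the GENCODE vM21 annotation. The mean count of Top2b, 18310 normalised counts in the authors' deposited table, was 143 times that of Rarb, and Top2b itself was higher in Inv1DelCTCF by 0.21 on the log2 scale (adjusted p = 0.0183, SE 0.066). Whether the counting used strand is not given in the sources used here, so reads of the 2 genes may not have been told apart and the Rarb value is uncertain. Meis1 overlaps the noncoding genes Gm16140 and Gm37818 in that annotation, so its value carries the same doubt.

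Rara, the broadly expressed RAR gene, had rebuilt levels of 1728 normalised counts in Inv1DelCTCF and 2078 in Inv1. Its log2 change of -0.27 (adjusted p = 0.0964, SE 0.111) in the authors' deposited table did not pass. Rarg, the RAR gene known from limb and cartilage mesenchyme, had rebuilt levels of 6281 normalised counts in Inv1DelCTCF and 6712 in Inv1. Its log2 change was -0.096 (adjusted p = 0.374, SE 0.067) in the authors' deposited table, with an interval of -0.23 to 0.036, and was 0.077 with the trend subtracted. Rarb exceeded Rara by 0.95 (95% interval 0.31 to 1.59) and Rarg by 0.78 (0.16 to 1.40) in log2 change, values that share the doubt about its overlap with Top2b. Rarb itself was not called, and it passed the filter on the mean count only through its level in Inv1DelCTCF. The intervals of these differences are therefore a description and no support for a difference between receptors. With the trend subtracted these differences were 0.76 (0.12 to 1.40) and 0.60 (-0.021 to 1.21), of which the second interval includes 0. Rara minus Rarg gave -0.17 (95% interval -0.43 to 0.084), an interval that includes 0.

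Meis1 and Meis2, homeobox genes of the proximal limb that retinoic acid switches on, showed no change that could be detected. Meis1 had rebuilt levels of 383 normalised counts in Inv1DelCTCF and 399 in Inv1, with a log2 change of -0.060 (adjusted p = 0.825, SE 0.137) in the authors' deposited table. Meis2 had rebuilt levels of 172.8 normalised counts in Inv1DelCTCF and 167.7 in Inv1, with a log2 change of 0.043 (adjusted p = 0.929, SE 0.219) in the authors' deposited table. The intervals, -0.33 to 0.21 for Meis1 and -0.39 to 0.47 for Meis2, leave room for changes as large as those of Crabp1 in Meis2. The difference of Meis2 minus Meis1 was 0.10 (95% interval -0.40 to 0.61).

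**Figure D2:**
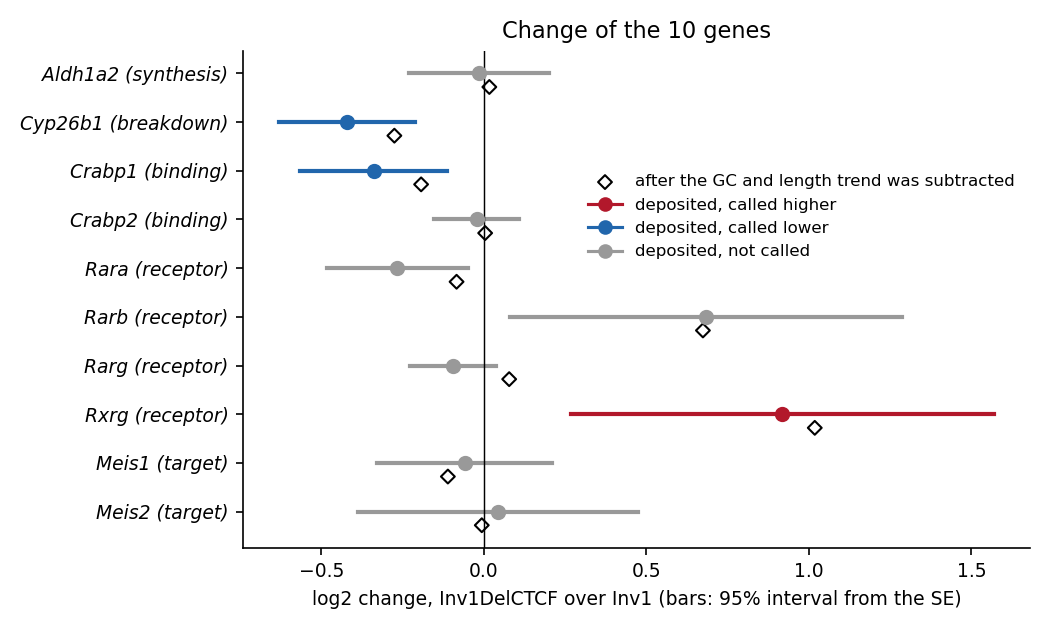
Log2 change of Inv1DelCTCF over Inv1 for each gene (points) with its 95% interval from the authors' SE (bars), coloured by the call at an adjusted p under 0.05; open diamonds give the value after the GC and length trend was subtracted. Cyp26b1 (-0.42) and Crabp1 (-0.34) are called lower and Rxrg (0.92) higher, and the diamonds of Cyp26b1, Crabp1, Rara and Rarg lie to the right of their points.

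Set on a common scale per kilobase of the longest annotated transcript, the mean levels over both groups spanned a wide range. Crabp2 came first with 6507 normalised counts per kilobase, followed by Cyp26b1 with 2993, Crabp1 with 2982, Rarg with 2215, Aldh1a2 with 906 and Rara with 573. The other 4 genes lay far below, Rxrg at 56.2, Meis1 at 52.0, Rarb at 41.1 and Meis2 at 30.9 normalised counts per kilobase. No spread between libraries is known for these levels, so the order of close neighbours such as Cyp26b1 and Crabp1 was not tested. With the median transcript length in place of the longest, Rarg came first with 15460 normalised counts per kilobase and Rxrg last with 64.6. The median was taken over all annotated transcripts of a gene, whatever their length. The median length also raised Meis2 to 202.8, Rarb to 121.5 and Meis1 to 126.8 normalised counts per kilobase. The place of Rarg and the order among the 4 lowest genes therefore depend on the transcript length used.

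Precision differed among the genes. For each gene the SE was set beside those of tested genes whose mean count lay within a factor of 1.5. The SE of Cyp26b1 was larger than that of 96.5% of 431 such genes, and 1.67 times their median of 0.064. The same share was 97.7% for Rxrg, 97.1% for Rarb, 96.2% for Crabp1, 93.5% for Aldh1a2 and 93.4% for Rara. It was 67.4% for Meis2, 55.9% for Rarg, 52.0% for Crabp2 and 41.2% for Meis1. The share was thus above 90% for 6 genes, the 3 called ones among them, and above 50% for all but Meis1. Which library carried the spread is not known.

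**Figure D3:**
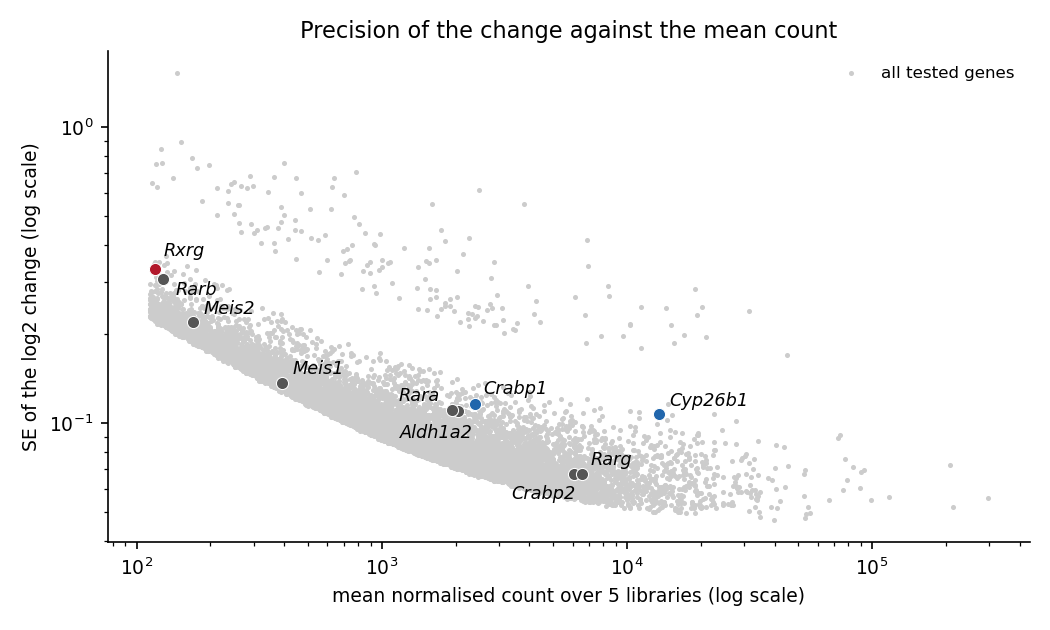
SE of the log2 change against the mean normalised count (both axes logarithmic) for the 11218 genes with an adjusted p (grey) and the 10 genes, coloured by call as in the plot of log2 changes (dark grey, not called). Rxrg and Rarb sit at the low-count end with SE values of 0.332 and 0.308, and Cyp26b1 lies above most genes of similar mean.

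The log2 change moved with the GC content of the transcript over the whole table. Across 10940 genes with an annotated transcript the Spearman correlation was -0.518, as a description, since genes share the same 5 libraries. Genes with a transcript GC content of 45% or less had a median log2 change of 0.086, and those above 55% and up to 60% one of -0.15. In that upper class 17.9% of 2007 genes were called lower and 0.399% higher. Cyp26b1 (56.7%), Crabp1 (57.4%), Rara (59.2%) and Rarg (58.8%) belong to it, and Rxrg (54.6%) to the class above 50% and up to 55%, in which 1.48% of genes were called higher. At the GC content and length of these genes the fitted trend had a log2 value of -0.15 for Cyp26b1, -0.15 for Crabp1, -0.18 for Rara, -0.17 for Rarg and -0.099 for Rxrg. The part of GC content in these results was not tested beyond that subtraction.

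**Figure D4:**
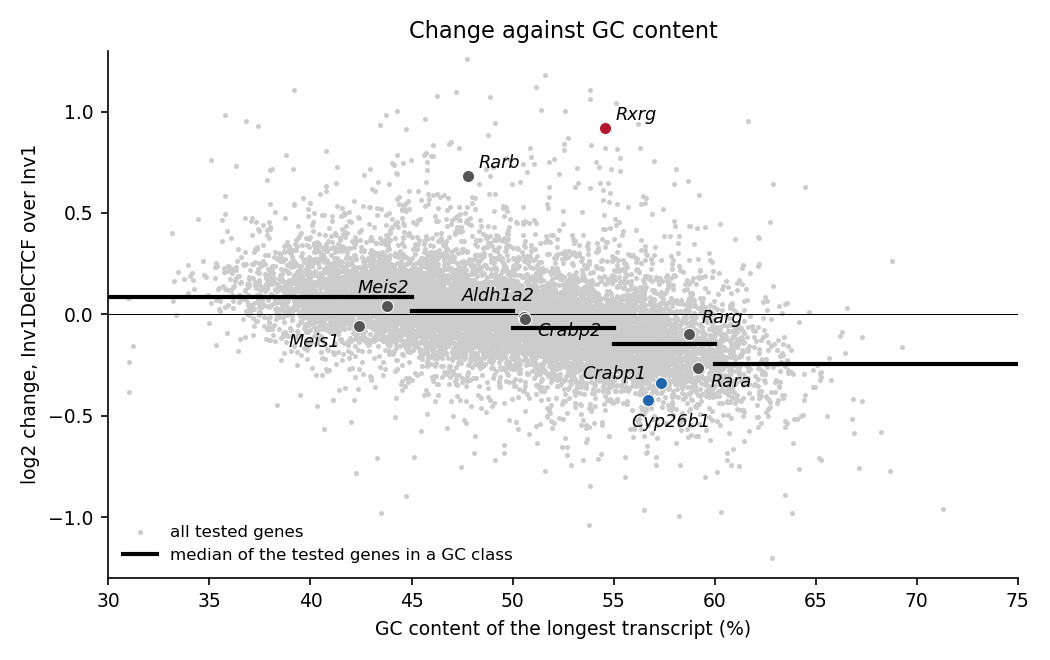
Log2 change of Inv1DelCTCF over Inv1 against the GC content of the longest transcript (%), for 10940 tested genes (grey, 2 outside the axes) and the 10 genes (blue called lower, red called higher, dark grey not called); black lines are medians within a GC class. Cyp26b1 and Crabp1 lie below the median of their class and Rxrg above its own.

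The 6 further lists of the pathway held 85 rows, of which 47 had an adjusted p; 8 fell in Inv1DelCTCF and none rose by the authors' Wald test. The 8 are 17.0% of the 47, against 7.89% of all tested genes called lower. These lists were chosen with earlier results of these data known, so that share is a description and no independent support. At an unadjusted p under 0.05, 20 of the 47 passed, 16 of them lower and 4 higher, against 26.1% of all tested genes in either direction and 16.1% lower. The median log2 change of these 47 was -0.065. With the trend subtracted 3 of the 47 were called, all lower, against 1.65% of all genes.

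In the list of retinoid supply, which covers retinol uptake and storage, retinol dehydrogenases and the other retinal dehydrogenases, 10 of 25 genes had an adjusted p, none was called by the authors' Wald test, and the median was 0.031. At an unadjusted p under 0.05 there were 2, both higher. These were Rdh10, the main retinol dehydrogenase of the embryo, at 0.32 (adjusted p = 0.121, SE 0.141), and its relative Rdh14, at 0.32 (adjusted p = 0.109, SE 0.136), by the authors' deposited table. Aldh1a1 and Aldh1a3, relatives of Aldh1a2, had means of only 1.97 and 68.0 normalised counts and were left without an adjusted p by the authors' deposited table. Among the other breakdown genes, Cyp26a1 had a log2 change of -0.44 (adjusted p = 0.142, SE 0.206) in the authors' deposited table. Cyp26c1, with a mean of 11.9, had a log2 change of -0.88 (SE 0.754) and was left without an adjusted p by the authors' deposited table.

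Of the carriers and other nuclear receptors, 2 of 9 tested genes fell and none rose. Rxra, the RXR gene expressed most widely, fell by 0.22 on the log2 scale (adjusted p = 0.00637, SE 0.061) in the authors' deposited table, with rebuilt levels of 4681 normalised counts in Inv1DelCTCF and 5466 in Inv1. Rxrb did not pass by the authors' deposited table, at -0.031 (adjusted p = 0.823, SE 0.071), so the 3 RXR genes were called lower (Rxra), not called (Rxrb) and called higher (Rxrg). With the trend subtracted Rxrb stood at 0.19 (adjusted p = 0.125, Wald test), on the other side of 0. Nr2f6, an orphan receptor gene, fell by 0.43 (adjusted p = 0.0309, SE 0.143) in the authors' deposited table. With the trend subtracted, Rxra (-0.070, adjusted p = 0.618) and Nr2f6 (-0.12, adjusted p = 0.738) were not called by the Wald test with Benjamini-Hochberg adjustment.

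All 15 co-regulators of RAR had an adjusted p; 5 fell, none rose, and the median was -0.12. Crebbp, a histone acetyltransferase gene, fell by 0.46 on the log2 scale (adjusted p = 5.98e-07, SE 0.076) and Zfp423, a zinc finger gene whose protein binds RAR and RXR, by 0.42 (adjusted p = 1.12e-05, SE 0.077) in the authors' deposited table. Tbl1xr1, part of the co-repressor complex, fell by 0.27 (adjusted p = 0.00984, SE 0.077) in the authors' deposited table. These 3 kept their call with the trend subtracted, at -0.36, -0.27 and -0.32. Carm1, an arginine methyltransferase gene, fell by 0.27 (adjusted p = 0.00351, SE 0.069) in the authors' deposited table, but was not called with the trend subtracted (adjusted p = 0.420, Wald test). Co-activators and co-repressors were thus both among the genes that fell.

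In the list of retinoic acid targets, 4 of 15 usable genes had an adjusted p and none was called by the authors' Wald test, with a median of -0.25 over those 4. The 1 with an unadjusted p under 0.05 was Fgf8, the growth factor gene of the apical ectodermal ridge, whose rebuilt levels were 131.8 normalised counts in Inv1DelCTCF and 303.2 in Inv1. Its wide error (SE 0.609) goes with a log2 change of -1.20 and an adjusted p of 0.188 by the authors' deposited table. Of the partners of the MEIS proteins in the TALE homeobox class and their relatives, 8 of 14 genes had an adjusted p and 1 was called, with a median of -0.023. That gene, Tgif2, which encodes a TALE repressor, fell by 0.22 (adjusted p = 0.0247, SE 0.071) in the authors' deposited table, and was not called with the trend subtracted (-0.11, adjusted p = 0.442, Wald test). Meis3 had a mean of 63.8, a log2 change of -0.0022 (SE 0.301) and was left without an adjusted p by the authors' deposited table.

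Since retinoic acid and Meis genes mark the proximal side, a proximal and a distal list were set beside them. Both lists were chosen with earlier results of these data known, so their shares are a description and no independent support. Of 12 tested proximal genes, 2 rose and none fell, against 3.81% higher over all genes. The median of the 12 was -0.093, and 8 of them had a negative log2 change. The 2 that rose were Hoxa9, a 5′ HoxA gene, by 0.21 (adjusted p = 0.0335, SE 0.073), and Shox2, a gene of proximal limb skeleton, by 0.27 (adjusted p = 0.0487, SE 0.097) in the authors' deposited table. Of 14 tested distal genes, 7 fell and none rose, against 7.89% lower over all genes, with a median of -0.35. A negative log2 change was found in 10 of these 14. The 4 with the smallest adjusted p were Mycn, a growth regulator, at -0.60 (adjusted p = 7.15e-05, SE 0.119), Sall4, a zinc finger gene, at -0.85 (adjusted p = 0.000299, SE 0.182), Lhx2, a LIM homeobox gene, at -0.41 (adjusted p = 0.00587, SE 0.110), and Hoxd12 at -0.25 (adjusted p = 0.0133, SE 0.074) in the authors' deposited table. Hoxd13, with the highest mean of the distal list (19242 normalised counts), was not called, at 0.049 (adjusted p = 0.628, SE 0.058) in the authors' deposited table. Msx2, Cyp1b1 and Lhx9 also lay above 0 without a call. The sum of the rebuilt levels of the distal list was 54629 normalised counts in Inv1DelCTCF and 60839 in Inv1, and that of the proximal list 51631 in Inv1DelCTCF and 52830 in Inv1. With the trend subtracted, 2 distal genes were called lower, Sall4 and Mycn, against 1.65% of all genes, and the proximal list held Hoxa9 called higher and Hoxd11 called lower. Cyp26b1 is itself a gene of the distal limb, and the part that the proximal or distal makeup of the tissue had in its value was not tested.

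**Figure D5:**
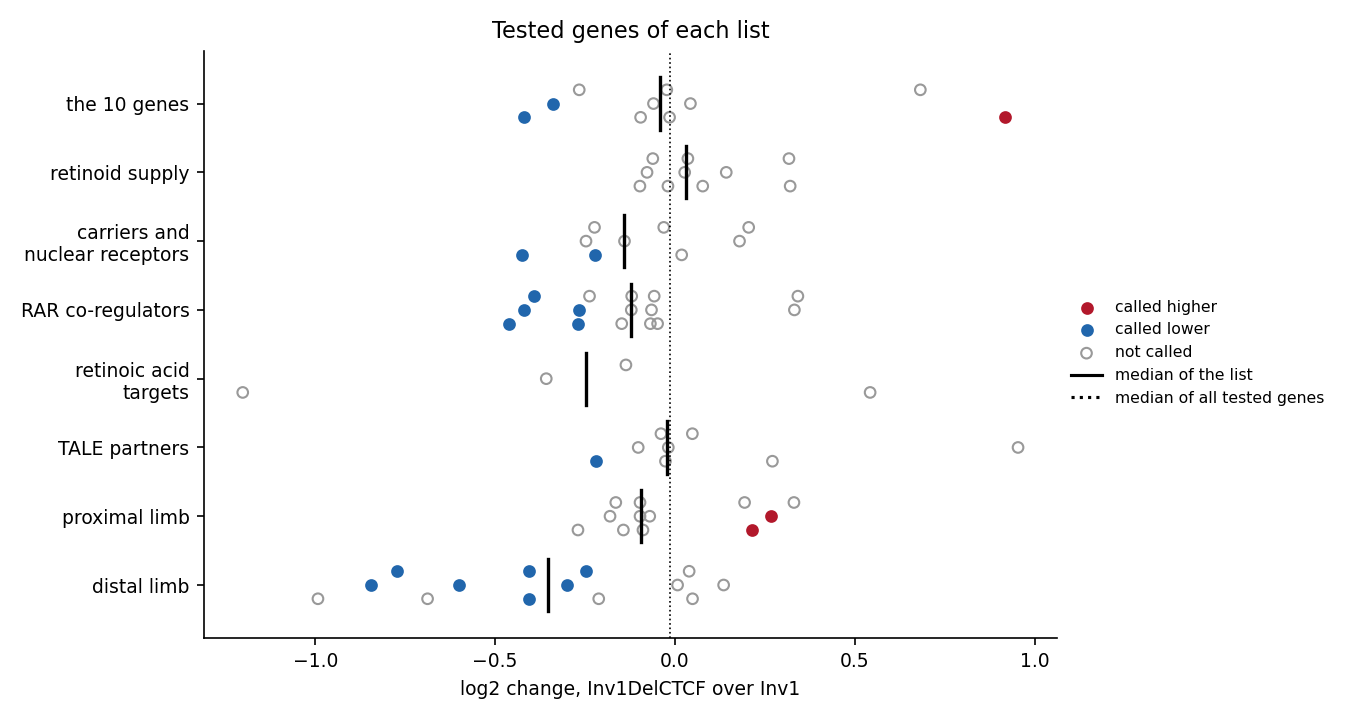
Log2 change of Inv1DelCTCF over Inv1 for every gene with an adjusted p in the 10 genes and in 7 lists (filled, called; open, not called), with the median of each list (black line) and of all tested genes (dotted line). The 7 called distal genes are all on the left, the 2 called proximal genes on the right, and the 10 genes spread on both sides.

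Prrx1 and Tbx5, genes of limb mesenchyme and of the forelimb, had means of 25893 and 7273 normalised counts in the authors' deposited table, against 642 for Tbx4 and 19.2 for Pitx1, genes of the hindlimb, so the forelimb marker was far above both while Tbx4 was not near 0. The authors' mean counts add up to 3.02e+07 over the table, and the 10 genes hold 0.110% of that. Of the markers of other cells with an adjusted p, 3 of 8 of surface ectoderm fell (Krt5, Krt18 and Cdh1), with summed rebuilt levels of 10768 normalised counts in Inv1DelCTCF and 12545 in Inv1. Each sum in this paragraph covers all rows of its list, also those without an adjusted p, while the counts do not. The endothelial list had 1 of 6 lower (Cdh5), with sums of 7520 in Inv1DelCTCF and 8317 in Inv1. The red cell list had 1 of 4 lower (Hbb-bh1), with sums of 58881 in Inv1DelCTCF and 55885 in Inv1, and Hba-a1 and Hba-a2 listed at 0. Hbb-y, which was not called, held 48033 in Inv1DelCTCF and 43077 in Inv1 of these sums, and Hbb-bh1 9512 and 11577. None of 4 muscle precursor, 3 macrophage, 3 nerve or 2 trunk markers was called, and the sums of all 4 lists were higher in Inv1DelCTCF. Members of 3 of these lists went the other way. They were Pax3, Myf5 and Lbx1 (muscle), Tubb3 (nerve), and Meox1 and Tcf15 (trunk). Macrophage sums were 1111 in Inv1DelCTCF and 874 in Inv1, and muscle precursor sums 2767 and 2193. Nerve sums were 1823 in Inv1DelCTCF and 1553 in Inv1, and trunk sums 5128 and 4515. Single genes that were not called held much of the sums of 3 lists. Tbx18, also in the proximal list, held 4922 in Inv1DelCTCF and 4304 in Inv1 of the trunk sums. Myog held 1518 and 1033 of the muscle precursor sums, and Erbb3 1040 and 852 of the nerve sums. With the trend subtracted, Krt5, Krt18, Cdh1 and Cdh5 were no longer called, Hbb-bh1 was still called lower, and the macrophage marker Csf1r was called higher, at 0.53 (adjusted p = 0.0392, Wald test with Benjamini-Hochberg adjustment). The part of cell composition in the values of Cyp26b1, Crabp1 and Rxrg was not tested.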

How the data were processed

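RNA of distal forelimbs was sequenced, and the libraries compared here are 2 of Inv1DelCTCF and 3 of Inv1. Extraction used RNeasy kits and a standard Illumina library protocol, per the labels. The authors used STAR and DESeq2 with build mm9, per the submitters' processing notes. Per the file headers, the deposited table gives a mean normalised count (a signal pooled over all libraries), a log2 fold change and its SE (also log2), the Wald score, and a p-value with its adjusted p-value. The depth of each library is unknown. No count model could be fitted, and a call is the authors' adjusted p under 0.05 unless another setting is named. Calls with the trend subtracted, or with p-values adjusted over other rows, rest on a Benjamini-Hochberg adjustment made here.

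The headers do not name the numerator. Inv1 levels rebuilt from the joint fit of 18 libraries against wild type were set beside those of this table for 49 genes with a mean of at least 300. The median absolute residual was 0.0124 (log2) when positive means higher in Inv1, and at least 0.107 under the other conventions. The sign was therefore turned, so that positive means higher in Inv1DelCTCF. Group levels were rebuilt from the mean, the log2 change and the library numbers.

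The longest GENCODE vM21 transcript gave GC content and length, found for 97.5% of tested genes. The trend had cubic terms in both and their product, and each gene was weighted by the inverse of its squared SE. On 20 simulated tables of Inv1DelCTCF over Inv1 with 10940 genes, 200 were given a log2 change of 1 in either direction. After a planted trend was subtracted, 98.2% of them were recovered, with a mean of 12.2 false calls. That trend was linear in GC content, with no length term. Smaller changes, such as those of Cyp26b1 and Crabp1, were not planted, so their recovery after the subtraction is not known.

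The 10 genes and all lists were chosen with earlier results of these data known. All 10 are described. Of the lists, every called gene of the 6 pathway lists, up to 4 called genes of the proximal and distal lists, and Aldh1a1, Aldh1a3, Cyp26a1, Cyp26c1, Rxra, Rxrb and Meis3 are named. Top2b, Hoxd11, Hoxd13, Msx2, Cyp1b1, Lhx9, Rdh10, Rdh14 and Fgf8 fall outside that rule and were named after their values were seen. Of the genes the rule takes, 1 is left unnamed here. Stra13, a symbol shared by several genes, was left out, and Bcmo1 was matched as Bco1. The other mutants were compared with wild type in tables without these genes and are not used here, nor are the 3 Inv1 libraries of embryonic stem cells. The tools were SciPy 1.17.1, NumPy 2.4.6 and pandas 2.3.3 under Python 3.11.15, with matplotlib 3.10.9 for plots.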

Additional observations from a re-analysis of the deposited data

How the results depend on the processing

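No paired analysis was possible because the table holds no value per library, and for the same reason no replicate could be left out. Under 8 alternatives, the 2 falls among the 10 genes became 1 at an adjusted p under 0.01 and with adjustment over every row, and 0 with the GC and length trend subtracted. The 1 rise became 0 at an adjusted p under 0.01, with adjustment over every row, with a mean of at least 10, and with the trend subtracted. Rara was called at an adjusted p under 0.1. The 8 falls among other pathway genes became 5 at an adjusted p under 0.01 and 3 with the trend subtracted. Over all genes, 427 rises became 179 at an adjusted p under 0.01, 682 at one under 0.1 and 220 with the trend subtracted. The 885 falls became 397 at an adjusted p under 0.01 and 180 with the trend subtracted. That subtraction also turned the sign of 4 genes that were never called, Aldh1a2 (0.016), Crabp2 (0.0036), Rarg (0.077) and Meis2 (-0.0068). Cyp26b1 kept its call under every alternative run except the trend subtraction. The limits are 2 libraries against 3 and an unknown depth per library. The sign of the change rests on the agreement of levels between tables, which gave the same direction with a mean of at least 20, 100 or 300.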
